A study of Homo sapiens with 24 samples.

Results

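The YAP and TEAD loci are the genomic windows of 7 genes, the coactivator genes YAP1 and WWTR1, the DNA-binding partner TEAD1, and the target genes CCN1, CCN2, ANKRD1 and AMOTL2. Members were the H3K27ac peaks with a deposited -log10 q of 2 or more inside these windows in any of 20 ChIP libraries. Merging peaks that overlapped by at least 1 bp gave 87 regions of 89609 in all, 32 in the WWTR1 window, 26 in TEAD1, 8 in CCN1, 8 in AMOTL2, 5 in ANKRD1, 5 in YAP1 and 3 in CCN2. Within each window, regions are numbered below in order of position. The hg19 windows were CCN1 on chr1:86020000-86070000, CCN2 on chr6:132240000-132300000, ANKRD1 on chr10:92650000-92700000, AMOTL2 on chr3:134060000-134110000, YAP1 on chr11:101960000-102120000, WWTR1 on chr3:149220000-149480000 and TEAD1 on chr11:12680000-12980000. The exons, introns and gene starts within them were not analysed here.

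The measurement was ChIP-seq of histone H3 acetylated at lysine 27 (H3K27ac), which marks enhancers and promoters in use, in parental cells of a pair of human endothelial lines. TeloHAEC are aortic endothelial cells immortalized with telomerase, and Eahy926 is an endothelial hybrid line. Each line had 2 untreated control libraries from library day 0 and 2 from day 1, and 2 libraries from day 1 for each treatment. Libraries are named below by day and biological replicate, so control 1.2 is replicate 2 of day 1. The treatments were 10 ng/ml interleukin 1 beta (IL1b) for 24 h, 10 ng/ml tumor necrosis factor alpha (TNFa) for 24 h, and, as the third, a change of medium. Vascular endothelial growth factor (VEGF) was left out of the TeloHAEC medium, whose controls therefore grew with it, and was put into the Eahy926 medium, whose controls grew without it. The line difference in controls is thus also a difference in medium and in VEGF, which cannot be told apart. Each line is a single established line, and the endothelial markers of the lines were not analysed here. The labels call the libraries biological replicates without naming separate cultures, so p values measure the spread between these libraries.

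YAP1 and WWTR1, whose protein is called TAZ, are the transcriptional coactivators that the Hippo kinase cascade holds in the cytoplasm by phosphorylation. When released, they enter the nucleus and bind TEAD factors, which supply the DNA binding, often near AP-1 sites in enhancers. In endothelium they respond to cell shape, stiffness and flow and take part in vessel sprouting. CCN1 (CYR61) and CCN2 (CTGF) encode secreted matricellular proteins, ANKRD1 encodes an ankyrin repeat protein found in nucleus and sarcomere, and AMOTL2 encodes a junctional scaffold of the angiomotin family that binds YAP and restrains it.

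The classical TEAD motif links the regulators to the targets, so the promoters that hold it are shown first, as the 250 bases before the RefSeq gene start on GRCh38.p14. Of the 7 genes, 5 had an entry. Capitals mark the TEAD motif GGAATG or, for the other strand, CATTCC, and the sequences are written 5′ to 3′ on the gene's strand.

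CCN2, chr6:131951373-131951622, minus strand: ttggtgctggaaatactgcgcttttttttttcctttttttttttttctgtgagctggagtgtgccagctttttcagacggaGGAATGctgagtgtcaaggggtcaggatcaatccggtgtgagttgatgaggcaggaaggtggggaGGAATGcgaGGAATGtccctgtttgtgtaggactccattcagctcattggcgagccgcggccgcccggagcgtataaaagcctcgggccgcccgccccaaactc
ANKRD1, chr10:90921088-90921337, minus strand: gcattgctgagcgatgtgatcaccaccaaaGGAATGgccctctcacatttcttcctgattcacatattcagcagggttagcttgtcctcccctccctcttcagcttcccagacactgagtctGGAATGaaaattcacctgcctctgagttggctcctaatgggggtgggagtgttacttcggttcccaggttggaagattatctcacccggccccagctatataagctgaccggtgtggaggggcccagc
AMOTL2, second entry, chr3:134374448-134374697, minus strand: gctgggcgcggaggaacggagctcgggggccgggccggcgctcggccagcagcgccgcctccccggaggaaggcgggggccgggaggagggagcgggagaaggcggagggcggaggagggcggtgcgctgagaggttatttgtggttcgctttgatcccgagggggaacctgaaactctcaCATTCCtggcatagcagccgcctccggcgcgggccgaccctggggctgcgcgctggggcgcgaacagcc
YAP1, chr11:102110197-102110446, plus strand: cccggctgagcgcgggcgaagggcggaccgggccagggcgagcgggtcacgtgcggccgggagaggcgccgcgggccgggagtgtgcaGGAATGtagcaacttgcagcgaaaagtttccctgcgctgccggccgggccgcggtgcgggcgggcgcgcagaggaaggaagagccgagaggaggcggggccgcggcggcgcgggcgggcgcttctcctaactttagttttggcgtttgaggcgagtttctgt

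The CCN2 promoter held 3 motifs, starting 169, 104 and 95 bases before the gene start. ANKRD1 held 2, at 220 and 128 bases, YAP1 held 1 at 162 bases, and the second AMOTL2 entry held 1 on the other strand at 69 bases. The first AMOTL2 entry and both WWTR1 entries held none in these windows. Of 35116 promoters of this length in the table, 11.9% held at least 1 TEAD motif, 0.94% held at least 2 and 0.0826% held at least 3. The AP-1 motif TGANTCA, searched on both strands, was found once, in ANKRD1, and was in 6.57% of the promoters. Such matches are descriptions of sequence and not measured binding. These positions are on another build than the peaks and were not joined to them.

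Libraries differed in depth with library day. The 4 day 0 ChIP libraries held 18387194 to 21135399 tags and 34.05 to 40.3 Mb under peaks, and the 16 day 1 libraries held 3843129 to 7122108 tags and 13.2 to 30.1 Mb. The shortest lists were those of TeloHAEC control 1.1, TeloHAEC without VEGF 1.1 and Eahy926 IL1b 1.2. The 7 windows held from 33 peaks in TeloHAEC control 1.1 to 78 in TeloHAEC control 0.2. In the 4 input libraries, made from chromatin without immunoprecipitation, the windows held 1 peak that passed the threshold, 387 bp long in the TEAD1 window of TeloHAEC input 0.2. Because only peak lists were used, lengths under peaks were rescaled so that each library covered the mean of 25.1 Mb in total. The result is called scaled covered length, in bp.

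Acetylated regions were present at all 7 loci in both lines. Regions with a peak in every library of 1 line and none of the other were no more frequent here than among all regions. Of the 87 regions, 16 had a peak in all 20 libraries, against 10.8% of all regions. These were 6 in WWTR1, 4 in TEAD1, 2 in ANKRD1, 2 in YAP1, 1 in CCN1, 1 in AMOTL2 and none in CCN2. A peak in every TeloHAEC library and in no Eahy926 library was found at 1 region, in TEAD1, against 1.94% of all regions. The reverse was found at 1 region, in WWTR1, against 1.24%. Counting controls alone, 2 regions (in TEAD1 and WWTR1) had a peak in all 4 TeloHAEC controls and no Eahy926 control, beside 3.46% of all regions, and 3 regions (1 in AMOTL2, 2 in WWTR1) the reverse, beside 3.26%.

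**Figure D1:**
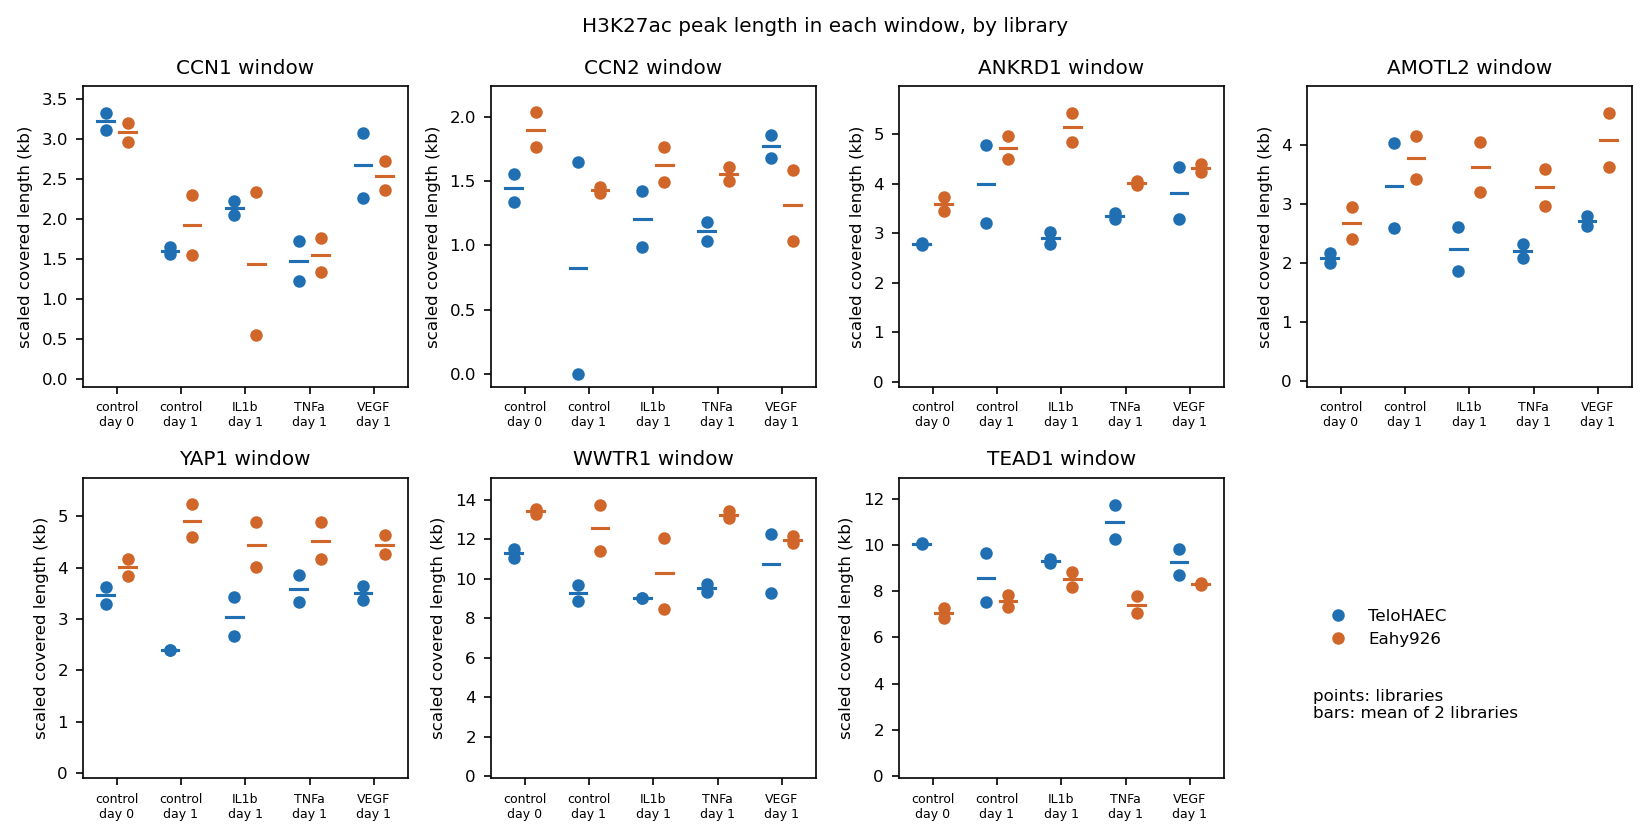
Scaled covered length in kb under H3K27ac peaks in each of the 7 windows, by line, treatment and library day. Points are libraries and bars are the mean of 2 libraries. YAP1 is the only window in which all 4 TeloHAEC controls, 2399 to 3620 bp, lie below all 4 Eahy926 controls, 3847 to 5235 bp.

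In the YAP1 window the TeloHAEC controls carried less acetylated length. The day 0 TeloHAEC controls had 3302 and 3620 bp and those of day 1 had 2402.5 and 2398.5 bp. The Eahy926 controls had 3847 and 4174 bp on day 0 and 4605 and 5235 bp on day 1. All 4 TeloHAEC values lay below all 4 Eahy926 values, as did 20.9% of 160-kb tiles of the genome, while in 17.3% they lay above. The means were 2931 ± 626 and 4465 ± 600 bp (SD, n = 4 each), a ratio of 0.656 (two-sided exact permutation test, p = 0.0286, the smallest that 4 against 4 can give, not adjusted over the 7 windows). Without scaling the difference was -1457 bp with an exact p of 0.314, and at an equal covered length in every library it was -550.5 bp with an exact p of 0.343, so neither passed the threshold. Leaving out any control gave an exact p of 0.0571, the smallest that 3 against 4 allows. In the other 6 windows the groups overlapped. The tiles without overlap in which TeloHAEC was higher or lower were 14.4% and 16.7% at 50 kb, 15% and 17.3% at 60 kb, 19% and 22.9% at 260 kb, and 19.3% and 22.8% at 300 kb.

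Within YAP1, the region at chr11:102048220-102049918 (region 4) had a peak in all 10 Eahy926 libraries and in 8 of 10 TeloHAEC libraries. Its scaled length ran from 918 to 1728 bp with a median of 1314 bp in Eahy926, and from 0 to 964 bp with a median of 590 bp in TeloHAEC. The regions at chr11:101980574-101982943 (region 1) and chr11:102095875-102097624 (region 5) had peaks in all 20 libraries. The bin holding region 1, chr11:101980001-101990000, had 771 ± 335.5 bp in TeloHAEC controls and 1364 ± 88.8 bp in Eahy926 controls (SD, n = 4 each). Its log2 difference was -0.76 (SE 0.25, limma adjusted p = 0.0277). That call was lost in 6 of 8 fits without 1 control, and at equal covered length the difference was 0.70 with an adjusted p of 0.607.

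The WWTR1 window, 260 kb long, carried the most acetylated length of the 7 in every control library. By share of the window covered, the 50-kb ANKRD1 window lay above it in every control, as with 10.2% against 7.58% in Eahy926 control 0.1. In WWTR1, TeloHAEC controls had 11516 and 11082 bp on day 0 and 8858 and 9667 bp on day 1. Eahy926 controls had 13308, 13558, 13760 and 11417 bp. The groups overlapped by a single library, with means of 10281 ± 1234 and 13011 ± 1079 bp (SD, n = 4 each, two-sided exact permutation p = 0.0571). The clearest element was region 22 at chr3:149342844-149344615. It was covered for 325.5 to 1421 bp, median 945 bp, in the 10 Eahy926 libraries and had no peak in any TeloHAEC library.

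For a test within the windows, the genome was divided into 10-kb bins and log2 of the scaled length plus 200 bp was fitted with limma over the 20 libraries. Of 93 bins in the windows, 41 passed the filter on low values, and 12 of the 41 were called between the control groups at an adjusted p under 0.05 over 39412 bins, with 14 at an unadjusted p under 0.05. In TeloHAEC 4 of these bins were higher, beside 22.8% of all tested bins, and 8 were lower, beside 20.1%. The median log2 difference was -0.10 over the 41 bins and -0.03 over all tested bins. At equal covered length, where 28 bins were tested, 2 were called. At the stricter threshold of -log10 q of 5 the calls were 5 higher and 3 lower. Of the 12, 8 passed the filter through 1 line alone (4 through each) and had to be high there, so they are given below by their lengths as a description, without a p. The other 4, in YAP1, TEAD1 and, for a pair of them, WWTR1, passed in both lines and were lower in TeloHAEC controls. The share of lower calls among all bins passing in both lines was not computed. Each of these 4 calls was lost in some of the alternative settings.

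The WWTR1 bin of region 22, chr3:149340001-149350000, was at 0 in all 4 TeloHAEC controls and at 1073 ± 266 bp in Eahy926 controls (SD, n = 4). It passed the filter through Eahy926 alone. WWTR1 also held 2 lower bins that were covered in all 20 libraries. At chr3:149290001-149300000 the 10 TeloHAEC libraries had 457 to 1811 bp, median 1133 bp, and the 10 Eahy926 libraries had 1528.5 to 2983 bp, median 2237 bp. Its log2 difference was -0.87 (SE 0.23, limma adjusted p = 0.00849), and with the day 0 controls alone it was -0.34 with an adjusted p of 0.561. At chr3:149330001-149340000 the control means were 1092 ± 366.5 and 1574 ± 171 bp (SD, n = 4 each), with a log2 difference of -0.50 and an adjusted p of 0.0127 from limma. That call was lost without Eahy926 control 1.1 (adjusted p = 0.0519), without scaling (0.0568), at the stricter threshold (0.116) and with the day 0 controls alone, where the difference was -0.13 (0.784). A bin at chr3:149420001-149430000 was higher in TeloHAEC, at 307 ± 214 against 0 bp in controls (SD, n = 4 each). Its call was lost in 7 of 8 fits without 1 control and in the fit with a replicate block.

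TEAD1, which encodes the DNA-binding factor, was the window with more acetylated length in TeloHAEC on average. TeloHAEC controls had 10067, 10019, 7515 and 9629 bp and Eahy926 controls had 7285, 6854, 7293 and 7842 bp. Only TeloHAEC control 1.1 lay within the Eahy926 range. The means were 9307 ± 1211 and 7319 ± 405 bp (SD, n = 4 each), with a two-sided exact permutation p of 0.0571. Region 16 at chr11:12823814-12825525 was covered in all 10 TeloHAEC libraries, for 751.5 to 1344 bp with a median of 1045 bp, and in no Eahy926 library.

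The bin of TEAD1 region 16, chr11:12820001-12830000, was at 960 ± 149 bp in TeloHAEC controls and 9.1 ± 18.2 bp in Eahy926 controls (SD, n = 4 each). It passed the filter through TeloHAEC alone. A further TEAD1 bin, chr11:12860001-12870000, had peaks in 8 of 10 TeloHAEC libraries and in no Eahy926 library. Its control means were 514 ± 385 bp in TeloHAEC and 0 bp in Eahy926 (SD, n = 4 each), and its call was lost in 7 of 8 fits without 1 control. The third called TEAD1 bin, chr11:12690001-12700000, was lower in TeloHAEC controls by a log2 difference of -1.05 (SE 0.22, limma adjusted p = 0.00244). With the day 0 controls alone that difference was 0.13 (adjusted p = 0.89). It is described with the treatments.

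**Figure D2:**
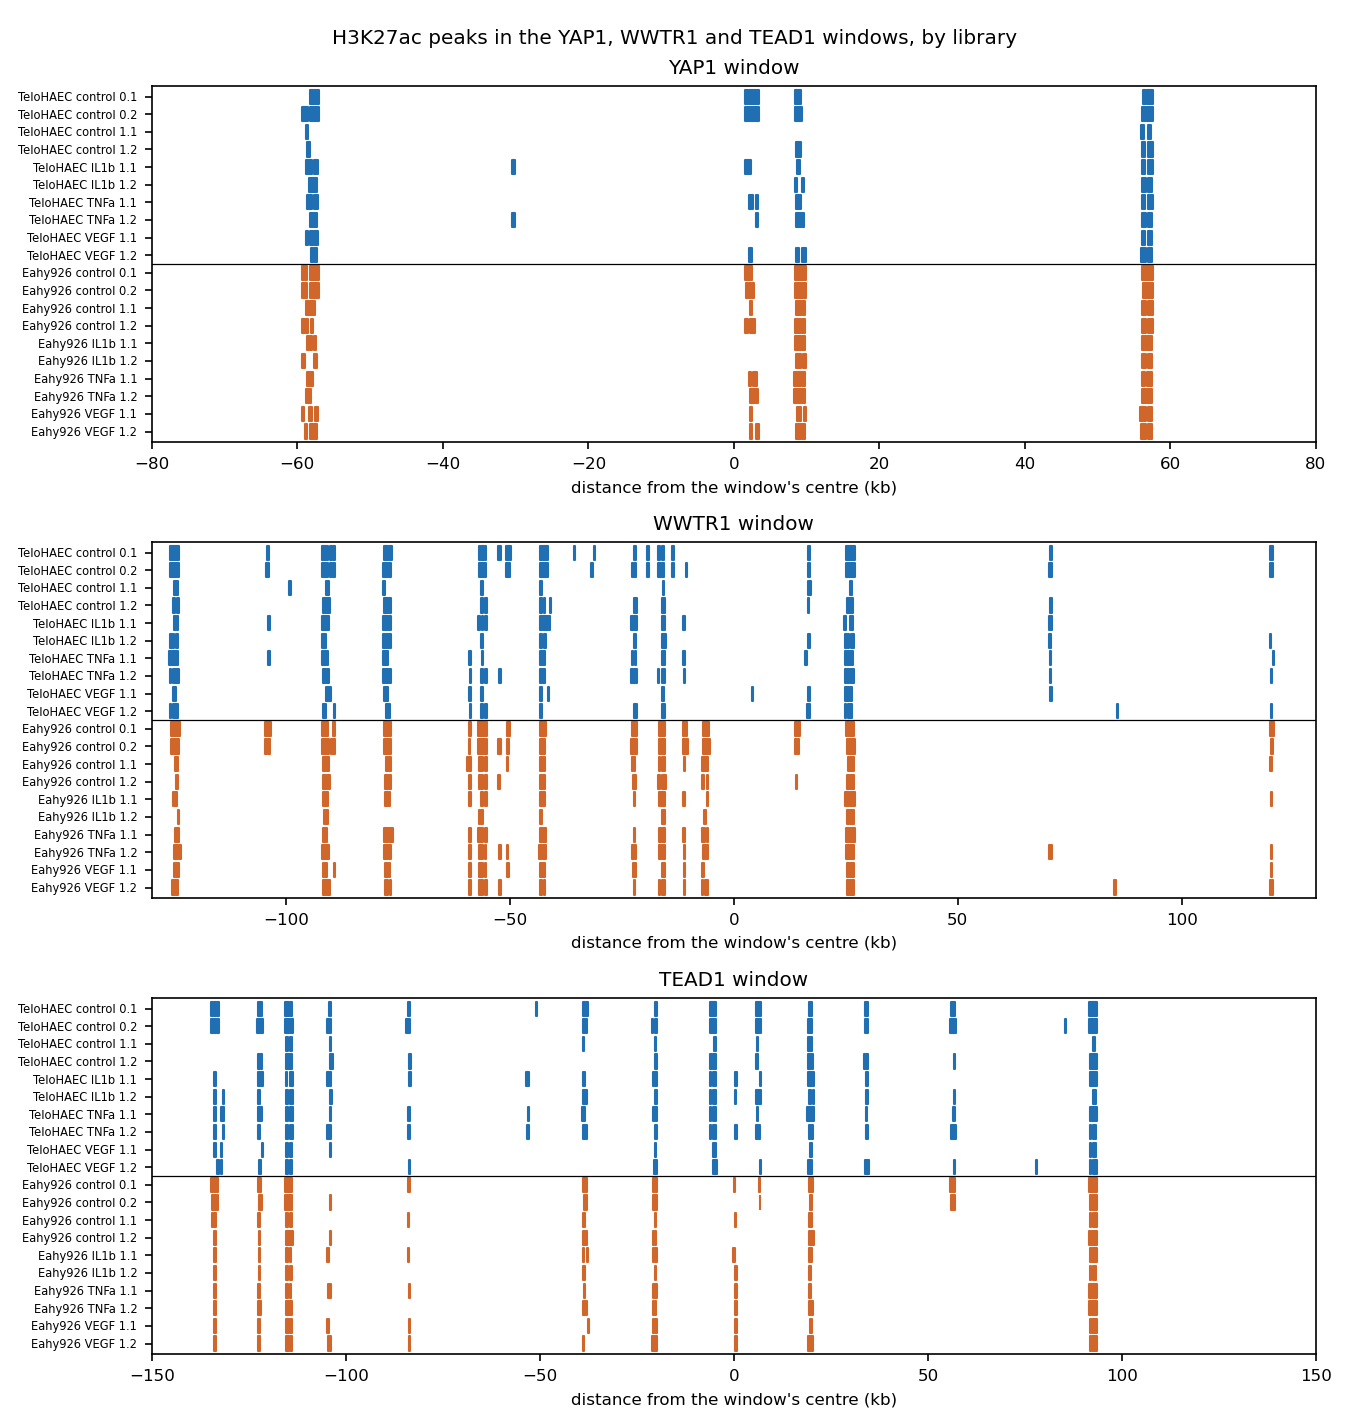
Peaks with -log10 q of 2 or more in the YAP1, WWTR1 and TEAD1 windows, 1 line of the plot per library, against the distance from the window centre in kb. TeloHAEC libraries are drawn in blue above and Eahy926 libraries in orange below. WWTR1 region 22 is filled in all 10 Eahy926 libraries alone, and TEAD1 region 16 in all 10 TeloHAEC libraries alone.

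Among the target genes, no window differed between the control groups beyond their overlap. Of 11 bins tested, 4 were called, and each had passed the filter through 1 line alone. The CCN1 bin was higher in TeloHAEC, beside 22.8% of all tested bins, and those of ANKRD1 and AMOTL2 were lower, beside 20.1%. In the CCN1 window the day 0 controls had 3110 and 3325.5 bp in TeloHAEC and 3201.5 and 2957 bp in Eahy926. The day 1 controls had 1645 and 1553 bp in TeloHAEC and 1541.5 and 2300 bp in Eahy926. The means were 2409 ± 939 and 2500 ± 744 bp (SD, n = 4 each, two-sided exact permutation p = 0.943), and the days differed more than the lines. CCN1 region 3 at chr1:86042872-86044269 had a peak in all 20 libraries.

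CCN1 region 1, at chr1:86034230-86035838, set the lines apart. All 4 TeloHAEC controls had a peak there, of 457 to 786 bp, and of the Eahy926 controls a single library had one, of 258 bp. Its bin, chr1:86030001-86040000, passed the filter through TeloHAEC alone. Over all 10 libraries of each line, 7 TeloHAEC and 2 Eahy926 libraries had a peak in this bin, and its call was lost with the day 0 controls alone.

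The CCN2 window held few peaks. Regions 2 and 3, at chr6:132272786-132273421 and chr6:132274940-132276673, each had peaks in 19 of 20 libraries, and the missing library was TeloHAEC control 1.1 at both. TeloHAEC controls had 1335, 1555, 0 and 1651 bp in the window, and Eahy926 controls had 1766, 2036, 1406 and 1456 bp. Below the threshold, the deposited list of TeloHAEC control 1.1 has a peak at chr6:132275451-132275800 with a pileup of 14 and a -log10 q of 1.76. The means were 1135.5 ± 768.5 and 1666 ± 294 bp (SD, n = 4 each, two-sided exact permutation p = 0.257). The 1 bin tested was not called.

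ANKRD1 had 2 regions with peaks in all 20 libraries, region 4 at chr10:92678856-92682052 and region 5 at chr10:92689448-92692259. Across its window the TeloHAEC controls had 2813, 2756, 4790 and 3206 bp and the Eahy926 controls had 3444.5, 3739.5, 4961 and 4494 bp. The means were 3391 ± 954 and 4160 ± 693 bp (SD, n = 4 each, two-sided exact permutation p = 0.229). Region 4 was wider in Eahy926, at 1528 to 2415 bp with a median of 1983 bp over 10 libraries, than in TeloHAEC, at 1186 to 1890 bp with a median of 1355 bp, and the ranges overlapped. Region 4 crosses the edge of a bin, and the called bin on its left, chr10:92670001-92680000, had 153 ± 113 bp in TeloHAEC controls and 881 ± 232.5 bp in Eahy926 controls (SD, n = 4 each). It passed the filter through Eahy926 alone, and its call was lost at equal covered length.

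AMOTL2 combined a shared element with a stretch seen in Eahy926. Region 8 at chr3:134091717-134093387 had a peak in all 20 libraries, with medians of 881 bp in TeloHAEC and 1131 bp in Eahy926. The neighbouring bins chr3:134060001-134070000 and chr3:134070001-134080000 had no peak in any of the 10 TeloHAEC libraries and a peak in 9 of 10 Eahy926 libraries each. Their control means in Eahy926 were 403 ± 337 and 779.5 ± 167 bp (SD, n = 4 each). Both passed the filter through Eahy926 alone, and at equal covered length neither was called. The reverse was seen at region 6, chr3:134087552-134088078, chosen after its values were seen, with a peak in all 10 TeloHAEC libraries, of 235 to 815 bp, and in 1 of 10 Eahy926 libraries. The whole window had 2173, 1994, 4025 and 2589 bp in TeloHAEC controls and 2412, 2954, 3422 and 4145 bp in Eahy926 controls (two-sided exact permutation p = 0.4, n = 4 each).

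**Figure D3:**
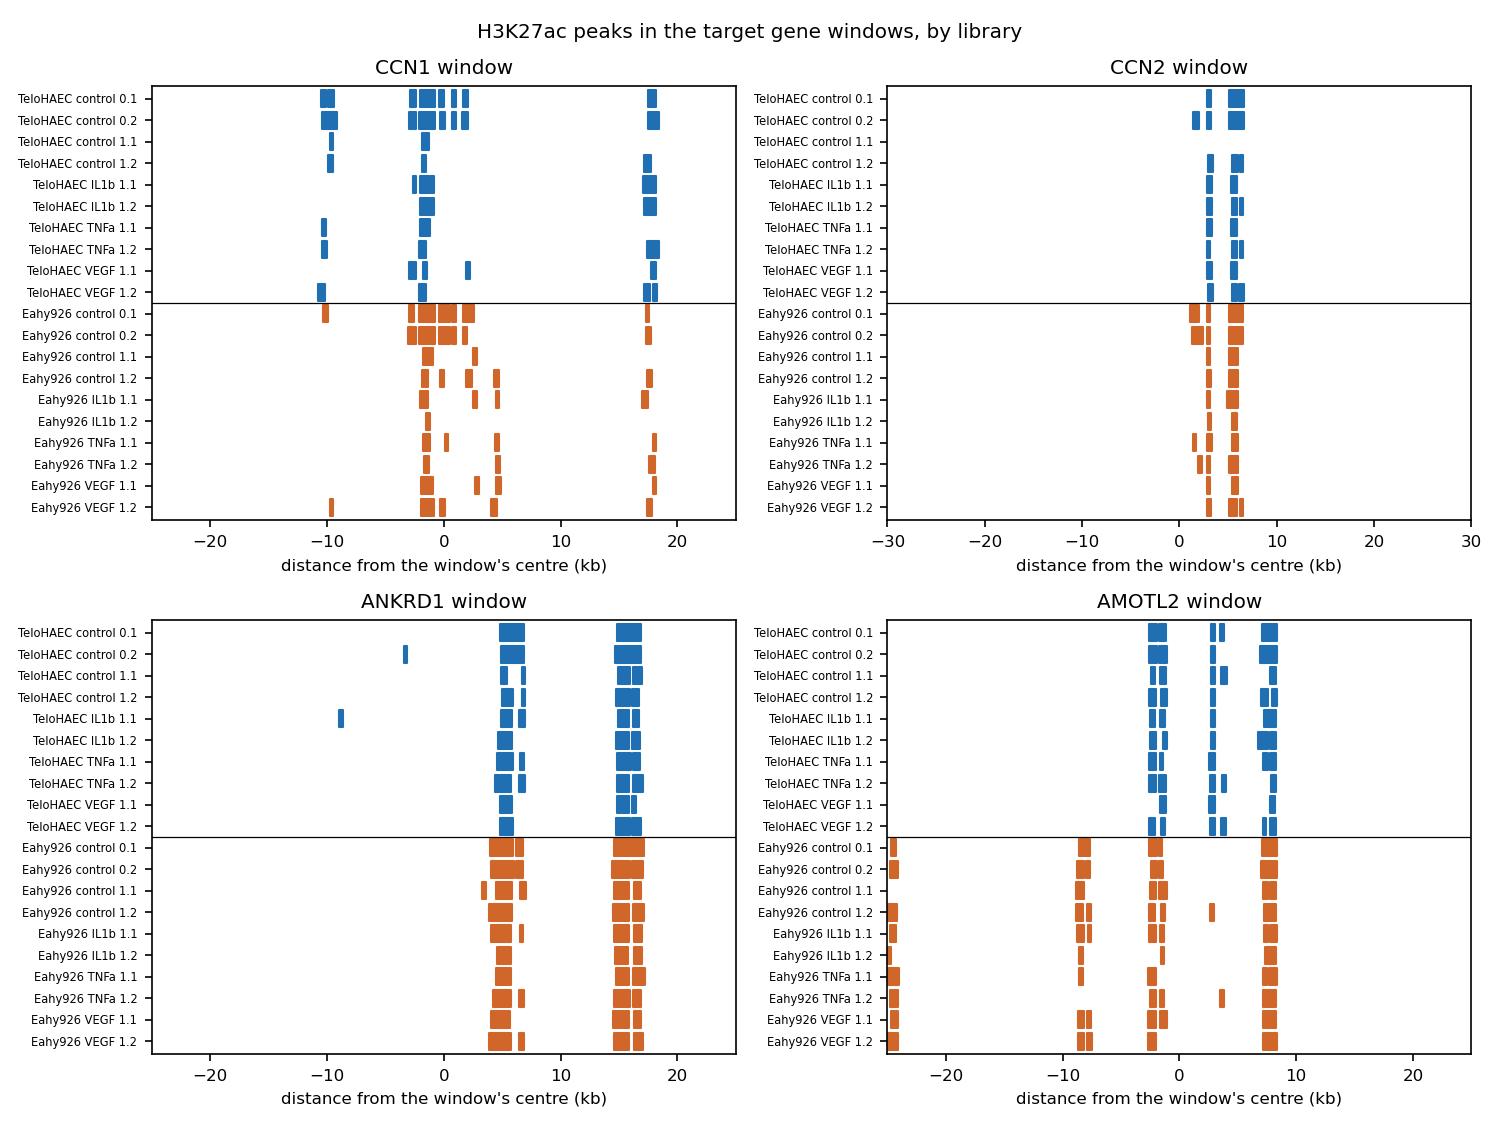
Peaks with -log10 q of 2 or more in the CCN1, CCN2, ANKRD1 and AMOTL2 windows, 1 line of the plot per library, against the distance from the window centre in kb. TeloHAEC libraries are in blue above and Eahy926 libraries in orange below. The 2 ANKRD1 regions run through all 20 libraries, and the CCN2 window is empty in TeloHAEC control 1.1.

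**Figure D4:**
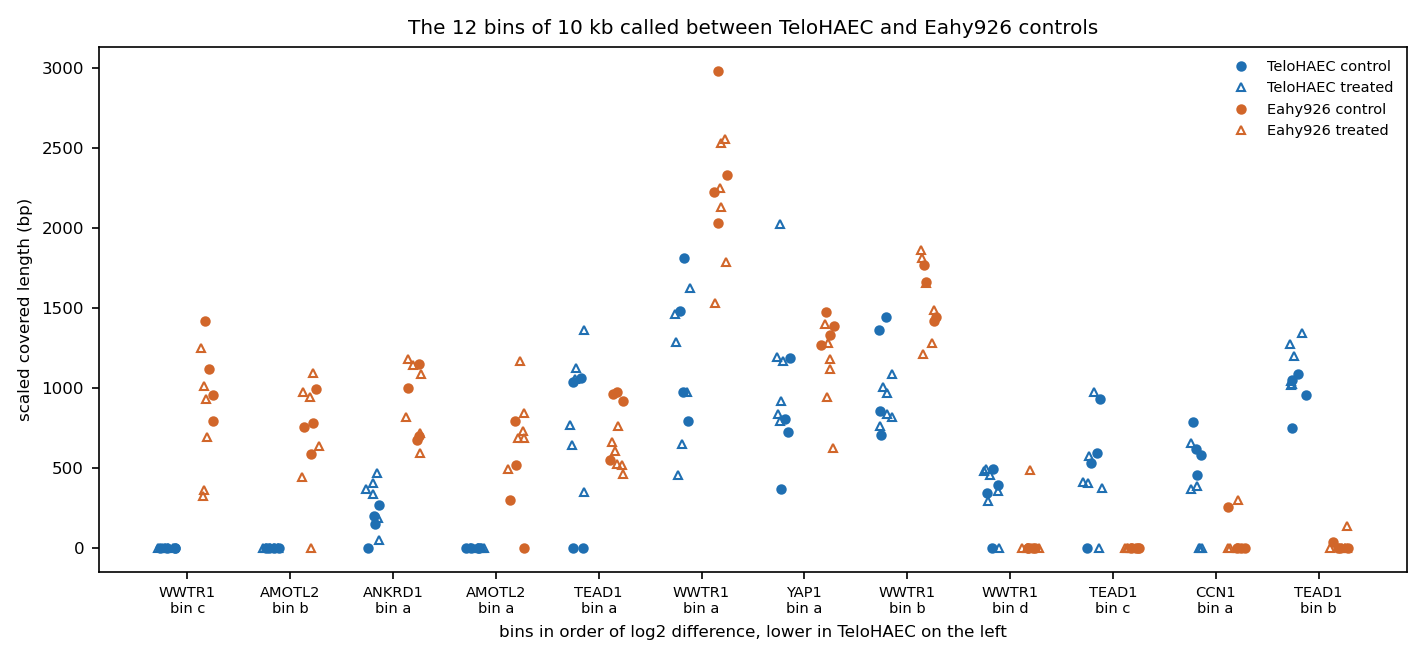
Scaled covered length in bp in each library for the 12 bins called between the lines, lettered by position within each window. Circles are controls, open triangles treated libraries, in blue for TeloHAEC and orange for Eahy926. The TEAD1 bin at 960 bp in TeloHAEC controls and 9.1 bp in Eahy926 controls, and the WWTR1 bin at 0 in all TeloHAEC libraries, show no overlap of the lines.

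Peak length does not give the height of the signal, so the fragment density around each summit was read from the deposited values as well. The deposited fold enrichment is the pileup plus 1 over the local background plus 1, where the background is at least the mean over 10000 bp around the summit. Solving for the background gave a local density, expressed here as a multiple of the library's genome mean. Peaks were called without a control, so the 10000 bp include the peak itself and the density is not independent of its width or height. The comparisons of this density between lines were added after its values had been seen.

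CCN1 stood in the densest surroundings of the 7 windows, by the median in each line and day. At its highest summit the local background was 20.6 to 44.2 times the genome mean over the 20 libraries, and 0.134 to 4.21% of the summits in a library had a higher one. The fold enrichment at that summit was 1.91 to 2.93. The highest CCN1 summit was thus tall in pileup, at 55.4 to 110 times the genome mean, and low in fold. The YAP1 window was the opposite, with a local background of 3.17 to 7.36 times the genome mean and a fold of 5.31 to 11.3. CCN2 lay between them, at 13.2 to 18.7 times the genome mean and a fold of 3.14 to 5.92 in the 19 libraries with a peak. At the highest summit, CCN1 thus had the lowest fold of these 3 windows, in a range that did not overlap with CCN2 or YAP1. At the peak with the highest -log10 p of each library, however, the CCN1 fold was 2.44 to 5.40 in TeloHAEC and 2.15 to 4.96 in Eahy926. These ranges overlapped with those of CCN2, 3.28 to 4.51 in TeloHAEC and 3.14 to 5.92 in Eahy926.

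At ANKRD1 the local fragment density was higher in Eahy926 than in TeloHAEC. This density was not set against input, and copy number at the locus was not analysed. At region 4 the local background was 11.95 ± 2.40 times the genome mean in TeloHAEC controls, from 10.4 to 15.5, and 27.5 ± 6.29 times in Eahy926 controls, from 20.6 to 33.5 (SD, n = 4 each, two-sided exact permutation p = 0.0286, the smallest possible). The ratio was 0.434, and 5.83% of the 9656 regions shared by all libraries had a lower one. Over all 10 libraries of each line, treated ones included, the values were 10.4 to 16.7 in TeloHAEC and 20.6 to 35.2 in Eahy926, without overlap. Region 5 gave 11.7 ± 2.65 and 24.7 ± 3.47 times the genome mean in controls (SD, n = 4 each, exact permutation p = 0.0286), and 9.45 to 17.0 against 19.5 to 30.5 over 10 libraries each. The fold enrichment at region 4 went the other way, at 5.03 ± 0.730 in TeloHAEC and 3.085 ± 0.233 in Eahy926 controls (SD, n = 4 each, exact permutation p = 0.0286). The pileup at that summit was 64.3 ± 6.77 times the genome mean in TeloHAEC and 85.9 ± 14.6 times in Eahy926 controls (SD, n = 4 each, exact permutation p = 0.0571). At region 4 it was thus the ratio to the surroundings, not the height, that was lower in Eahy926. At region 5 the fold overlapped between the control groups, at 5.67 ± 1.34 in TeloHAEC and 4.485 ± 0.654 in Eahy926 (SD, n = 4 each). There the pileup was lower in all 4 TeloHAEC controls, at 70.2 ± 10.3 against 113 ± 8.18 times the genome mean (SD, n = 4 each). Region 4 was the 1 of 16 shared regions whose fold was higher in all 4 TeloHAEC controls, beside 2.34% of all shared regions, and none was lower, beside 4.49%.

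Of the 16 regions of the windows shared by all 20 libraries, 3 had a lower local background in all 4 TeloHAEC controls than in all 4 Eahy926 controls, against 17.7% of all shared regions, and 1 a higher one, against 13.3%. Beside the ANKRD1 pair, the lower one was WWTR1 region 9 at chr3:149292849-149294954, at 17.8 ± 2.06 against 28.2 ± 6.36 times the genome mean (SD, n = 4 each). The higher one was AMOTL2 region 8, at 15.8 ± 1.84 against 11.8 ± 1.21 times (SD, n = 4 each). With treated libraries included, both of these overlapped between the lines. They were picked for the lack of overlap in controls, which always gives the smallest exact p, so no p is given for them. The smallest p at the ANKRD1 pair likewise restates the lack of overlap. No p of these density, pileup and fold comparisons was adjusted over the 16 regions. The other 12 overlapped among controls, CCN1 region 3 at 31.5 ± 10.2 and 39.3 ± 2.76 times among them (SD, n = 4 each, exact permutation p = 0.257). By pileup over the genome mean, 2 of the 16 were lower in all 4 TeloHAEC controls, beside 14% of all shared regions, and none was higher, beside 9.6%. The lower ones were ANKRD1 region 5 and WWTR1 region 18.

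**Figure D5:**
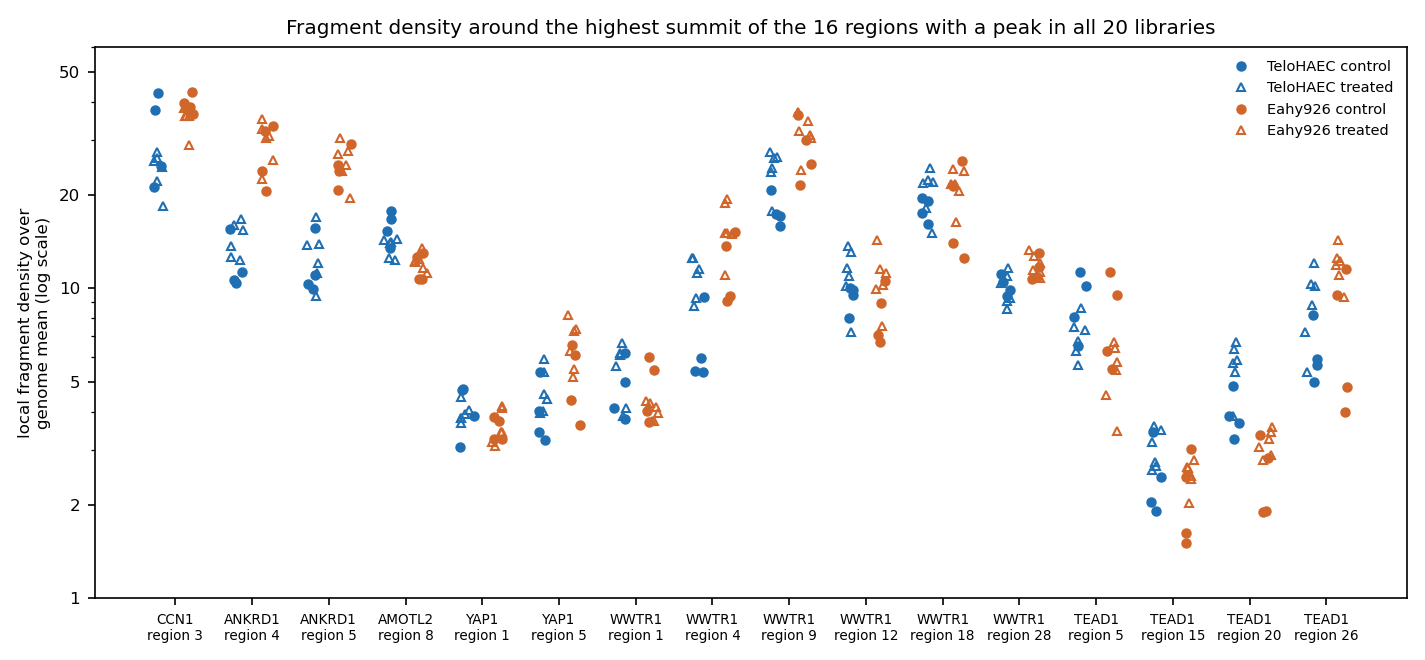
Local fragment density around the summit, as a multiple of the library's genome mean on a log axis, at the 16 regions with a peak in all 20 libraries. Circles are controls and open triangles treated libraries, in blue for TeloHAEC and orange for Eahy926. ANKRD1 regions 4 and 5 keep TeloHAEC, at most 16.7 and 17.0, below Eahy926, at least 20.6 and 19.5.

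Under treatment, 1 bin of the 7 windows was called, and it lay in TEAD1. It was higher in TeloHAEC with IL1b, with TNFa and without VEGF. These 3 comparisons share the same 2 day 1 controls. The background of bins called higher was 3.43% for IL1b, 2.96% for TNFa and 0.842% without VEGF, beside 1 of 41 in the windows each time, and no bin in the windows was called lower, beside 0.858%, 0.596% and 0.825%. At an unadjusted p under 0.05 from limma there were 7, 6 and 4 bins. Without TeloHAEC control 1.2 the calls were 4, 6 and 4, and without TeloHAEC control 1.1 they were 2, 2 and 1.

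The called bin, chr11:12690001-12700000 in TEAD1, was at 0 in both day 1 TeloHAEC controls. With IL1b it had 348 and 769 bp, with TNFa 1360 and 642 bp, and without VEGF 1125 and 1058 bp. The day 0 TeloHAEC controls, however, had 1065 and 1035 bp, within the range of the treated libraries. The log2 differences from the day 1 controls were 1.86 (SE 0.32, limma adjusted p = 0.0045) with IL1b, 2.52 (limma adjusted p = 0.000521) with TNFa and 2.69 (limma adjusted p = 0.000578) without VEGF. Against the controls of both days they were 0.54, 1.20 and 1.37, with adjusted p of 0.353, 0.0229 and 0.0101 from limma. At the stricter peak threshold and at equal covered length none of the 3 was called. TeloHAEC control 1.2 has a peak below the threshold in this bin, at chr11:12697097-12697369 with a pileup of 9. The depth of the day 1 controls moves with this result, at 3843129 and 5260340 tags against 18387194 or more on day 0, and its part was not tested. The treated TeloHAEC libraries held 4611342 to 5912920 tags.

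In Eahy926 the same TEAD1 bin was covered in every library, with 920, 964, 972 and 550 bp in controls, 604 and 760 bp with IL1b, 662 and 518 bp with TNFa, and 524 and 461 bp with VEGF. The mean response to the 2 cytokines was larger in TeloHAEC than in Eahy926 there by 2.37 on the log2 scale (SE 0.39, limma adjusted p = 0.0064), the 1 bin of 41 called for this difference, beside 1.64% of all bins called higher and 0.297% lower. It was -0.08 at the stricter threshold.

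No bin in the windows was called in Eahy926 with IL1b, TNFa or VEGF by limma, and 1, 2 and 2 bins had an unadjusted p under 0.05. Few bins of the genome were called there either, 0.117% higher and 0.677% lower with IL1b, 0.944% and 0.269% with TNFa, and 0.16% and 0.099% with VEGF. The AMOTL2 bin chr3:134070001-134080000 had the smallest p with TNFa, a log2 difference of -1.59 with a limma adjusted p of 0.103. At the stricter threshold 1 bin was called with IL1b and 1 with TNFa.

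No bin of the 4 target genes was called under any treatment. On simulated data the treatment comparisons called 0 to 8% of bins with a planted log2 increase of 1. A missing call therefore does not show that a bin was unchanged. The CCN1 window had 2050 and 2224 bp with IL1b and 1227 and 1719 bp with TNFa in TeloHAEC, against 1645 and 1553 bp in day 1 controls. Without VEGF it had 3076 and 2264 bp, both above both day 1 controls and below the day 0 control values of 3110 and 3325.5 bp. At the stricter threshold the window had 0 and 1414 bp without VEGF, against 0 and 506 bp in the day 1 controls. Inside it, region 1 had peaks in both day 1 TeloHAEC controls and in neither IL1b library, and its bin differed by -1.84 on the log2 scale without passing the threshold (limma adjusted p = 0.109). In Eahy926 the CCN1 window had 2333.5 and 545 bp with IL1b and 1760 and 1329 bp with TNFa, against 1541.5 and 2300 bp. With VEGF it had 2356 and 2718 bp, again above both day 1 controls and below the day 0 controls of 3201.5 and 2957 bp. Without scaling the VEGF libraries had 1983 and 2681 bp beside day 1 controls of 1251 and 2128 bp, so the ranges overlapped. With 2 libraries a group no test of a window was made.

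CCN2 in TeloHAEC had 989 and 1422 bp with IL1b, 1185 and 1034 bp with TNFa and 1862 and 1680 bp without VEGF, beside day 1 controls of 0 and 1651 bp. Its bin differed by 1.69 on the log2 scale without VEGF, with a limma adjusted p of 0.338. In Eahy926, CCN2 had 1765 and 1492 bp with IL1b, 1609 and 1504 bp with TNFa and 1034 and 1587 bp with VEGF. The 2 Eahy926 day 1 controls had 1406 and 1456 bp.

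ANKRD1 in TeloHAEC had 2783 and 3026 bp with IL1b, 3411 and 3298 bp with TNFa and 4340 and 3279 bp without VEGF, beside day 1 controls of 4790 and 3206 bp. Both IL1b values lay below both day 1 controls, and the day 0 controls had 2813 and 2756 bp. Without scaling, the IL1b libraries had 3345 and 2972 bp and lay above both day 1 controls, at 2524 and 2939 bp. In Eahy926, ANKRD1 had 4851 and 5430 bp with IL1b, 4064 and 3978 bp with TNFa and 4246 and 4393 bp with VEGF, beside 4961 and 4494 bp. AMOTL2 in TeloHAEC had 1860 and 2614 bp with IL1b, 2319 and 2089 bp with TNFa and 2632 and 2787 bp without VEGF, beside 4025 and 2589 bp. In Eahy926, AMOTL2 had 4049.5 and 3199 bp with IL1b, 3596 and 2961 bp with TNFa and 4542 and 3631 bp with VEGF, which overlapped its day 1 controls of 3422 and 4145 bp.

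Of the regulators, YAP1 in TeloHAEC had 3422 and 2664.5 bp with IL1b, 3865 and 3326 bp with TNFa and 3637 and 3376 bp without VEGF. All 6 values lay above the day 1 controls of 2402.5 and 2398.5 bp, and the day 0 controls, at 3302 and 3620 bp, lay above them too. This depended on the processing. Without scaling, the library without VEGF 1.1, at 2049 bp, lay below control 1.2, at 2199 bp. At the stricter threshold the day 1 controls had 2500 and 2373 bp, and the IL1b pair lay below both, at 2206 and 2250 bp. There TNFa gave 2054 and 2813 bp and the medium without VEGF 2487 and 1620 bp. WWTR1 in TeloHAEC had 9054 and 9021 bp with IL1b, 9351 and 9756 bp with TNFa and 12262 and 9261 bp without VEGF, which overlapped its day 1 controls of 8858 and 9667 bp. TEAD1 had 9197 and 9382 bp, 11735 and 10238 bp, and 8678 and 9803 bp in the same order. Of these 3 pairs, the TNFa pair alone lay above both day 1 controls of 7515 and 9629 bp. In Eahy926, YAP1 had 4013 and 4886 bp with IL1b, 4886 and 4164 bp with TNFa and 4274 and 4629 bp with VEGF, against 4605 and 5235 bp.

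The Eahy926 WWTR1 window had 12067 and 8499.5 bp with IL1b, 13085 and 13418 bp with TNFa and 11794.5 and 12163 bp with VEGF. Its day 1 controls had 13760 and 11417 bp, and IL1b 1.2, among the 3 shortest lists, was the lowest library. TEAD1 in Eahy926 had 8168 and 8829 bp with IL1b, 7795 and 7035 bp with TNFa and 8253 and 8355 bp with VEGF. The IL1b and VEGF pairs lay above both day 1 controls of 7293 and 7842 bp, and the TNFa pair did not. Without scaling neither the IL1b nor the VEGF pair did, at 6535 and 5089 bp and 6946 and 8240 bp, beside controls of 5919 and 7257 bp.

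Single regions that appeared or disappeared in both libraries of a treatment were few. A region counted as gained where both libraries of the treatment, but no day 1 control of the line, had a peak. In TeloHAEC 2 of 87 regions were gained with IL1b, 7 with TNFa and 2 without VEGF, beside 5.07%, 4.59% and 1.07% of all regions. Lost regions, the reverse, numbered 1, 1 and 0, beside 0.56%, 0.429% and 0.886%. In Eahy926 the gains were 0, 1 and 1, beside 0.311%, 2.02% and 1.08%, and the losses 1, 1 and 0, beside 2.07%, 0.956% and 0.759%.

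Of the 7 TNFa gains in TeloHAEC, 3 had peaks in both day 0 controls, and 4 had none there. Those with day 0 peaks included YAP1 region 3 at chr11:102041504-102043424, with 899 and 334 bp, and TEAD1 region 1 at chr11:12695218-12696567, with 404 and 312 bp, which was gained with IL1b as well, at 348 and 422 bp. The day 0 TeloHAEC controls had 1146.5 and 1123 bp at YAP1 region 3 and 629.5 and 606 bp at TEAD1 region 1. YAP1 region 3 was also the region lost with IL1b in Eahy926, where the day 1 controls had 408 and 1217 bp. Without VEGF, TeloHAEC gained TEAD1 region 3 at chr11:12697733-12698722, with 479 and 372 bp, and WWTR1 region 8 at chr3:149290783-149291387, with 795 and 287 bp. Both were gained with TNFa too, at 956 and 330 bp for TEAD1 region 3 and 281 and 293 bp for WWTR1 region 8, and neither had a peak in a day 0 TeloHAEC control. The other TNFa gains without day 0 peaks, named after their values were seen, were WWTR1 region 20 at chr3:149338675-149339117, with 341 and 281 bp, and TEAD1 region 10 at chr11:12776533-12777217, with 289.5 and 338 bp. In Eahy926, TNFa gained CCN2 region 1 at chr6:132271107-132272439, with 352 and 326 bp, and lost CCN1 region 6 at chr1:86046567-86047979, where the day 1 controls had 479 and 494 bp. The day 0 Eahy926 controls had 594 and 729 bp at CCN2 region 1, and the deposited list of day 1 control 1.1 has a peak there just below the threshold, with a -log10 q of 1.98. VEGF in Eahy926 gained TEAD1 region 6 at chr11:12725128-12725686, with 614 and 271 bp.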

How the data were processed

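H3K27ac ChIP and input chromatin were sequenced in 24 libraries, 20 ChIP and 4 input. Reads were aligned to hg19 with Bowtie2 and peaks called with MACS2, per the submitters' processing notes. Per the file headers, MACS 2.1.1.20160309 ran on each library alone without a control, at a p threshold of 0.001, keeping 1 tag per position, with a local range of 10000 bp. The deposited lists hold the authors' pileup, a coverage signal in fragments not scaled for depth, their -log10 p and -log10 q values, their fold enrichment (a ratio to the local background), and peak length in bp.

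From these, scaled covered bp were computed in 10-kb bins on the 22 autosomes and X. Bins with 500 bp or more in at least 2 ChIP libraries were fitted in 10 groups with limma 3.58.1 in R 4.3.3 as log2(scaled bp + 200), with 10 residual degrees of freedom and Benjamini-Hochberg adjustment. The spread of a bin is pooled over groups, so a group at 0 adds none. Windows were compared by exact permutation with scipy 1.17.1. In every ChIP library the lowest recovered local background equalled the genome mean in the file header, and the fits were tested on simulated data. There the treatment comparisons called 36 to 42% of bins with a planted log2 increase of 2, and the line comparison 68%. Named regions were, per window, the 3 with peaks in the most libraries, those of 1 line alone, and for each treatment the 2 widest gained or lost. The members and lists were chosen with earlier results of these data known. Alternatives were a stricter threshold, no scaling, an equal covered length, other pseudocounts, no filter, a replicate block, other controls and each library left out. Replicate numbers did not pair the libraries. The lists of other Hippo genes and of cell type markers were not used here, for want of positions on hg19.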

Additional observations from a re-analysis of the deposited data

Results flagged for a closer look

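Among 33 groups of 4 controls examined for a library far from the others, 3 held one. Chance was taken to give about 1 in 20, a rate that need not hold where the other controls are at 0. In the CCN1 bin chr1:86030001-86040000, a single Eahy926 control had a peak, of 257.9 bp, and the other 3 were at 0. In the TEAD1 bin chr11:12690001-12700000, Eahy926 control 1.2 had 550.0 bp, below the other 3, which had 920 to 972 bp. In the TEAD1 bin chr11:12820001-12830000, a single Eahy926 control had 36.5 bp and the other 3 were at 0.

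The mean response to IL1b and TNFa differed between the lines in the TEAD1 bin chr11:12690001-12700000, by 2.37 on the log2 scale (TeloHAEC minus Eahy926, limma adjusted p = 0.0064). All 4 cytokine-treated TeloHAEC libraries lay above both day 1 controls, which were at 0, but 3 of the 4 did not exceed the day 0 controls.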

How the results depend on the processing

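Lengths under peaks follow the depth and the threshold, and a bin at 0 can hold acetylation below the threshold. The numbers of called bins were compared over the settings named in the methods. At the stricter threshold, with 39 bins tested, TeloHAEC IL1b, TNFa and no VEGF gave 2, 3 and 0 called bins, Eahy926 IL1b and TNFa gave 1 and 1, and the cytokine difference between lines gave 2. Without scaling, TeloHAEC IL1b gave 2, TNFa 4 and the difference between lines 2. At an equal covered length of 14.5 Mb, with 28 bins tested, the line comparison gave 2, the 3 TeloHAEC treatments 0, 0 and 0, Eahy926 VEGF 1 and the difference in cytokine response 0. A pseudocount of 1000 gave 0 for TeloHAEC IL1b and 0 for that difference. Controls of both days gave 2 for TeloHAEC without VEGF and 1 for Eahy926 TNFa, and day 0 controls alone gave 5 for the lines. Without the 3 shortest lists, a setting chosen after seeing the data, the lines gave 16, TeloHAEC IL1b 3, TNFa 4 and the difference in response 3. The causes were not tested.

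With 1 library left out, the line comparison called 8 to 15 bins, TeloHAEC IL1b 1 to 4, TNFa 1 to 6, no VEGF 1 to 4, each Eahy926 treatment 0 to 1 and the difference in response 1 to 4. Window differences then ran from -410.8 to 193.8 bp for CCN1, -702.3 to -151.8 for CCN2, -1234.9 to -501.7 for ANKRD1, -980.9 to -233.7 for AMOTL2, -1763.9 to -1277.7 for YAP1, -3261.1 to -2255.6 for WWTR1 and 1735.6 to 2586.2 for TEAD1. CCN1 turned positive without Eahy926 control 0.1 (142.5 bp) or 0.2 (61.0 bp) and without TeloHAEC control 1.1 (163.1 bp) or 1.2 (193.8 bp). CCN1 was 13.8 bp without scaling and 480.0 bp at equal covered length, where ANKRD1 was 215.2 and AMOTL2 68.5 bp. YAP1 was -1456.8 bp without scaling, -550.5 at equal covered length, -549.2 on day 0 and -2519.2 on day 1, and TEAD1 was 2973.4 on day 0 and 1004.0 on day 1. Among named bins, the response difference at TEAD1 was -0.082 at the stricter threshold, the line difference there 0.13 on day 0, and YAP1 0.70 at equal covered length.

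With a replicate block, the line comparison called 11 bins, each TeloHAEC treatment 1, each Eahy926 treatment 0 and the response difference 1. The correlations of same-numbered libraries over 29 pairs of groups ran from -0.061 to 0.156, 1 of them over 0.1.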
